A study of Arabidopsis thaliana with 9 samples.

Results

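Seedlings of the line 35S::JAW were compared with wild-type seedlings on Affymetrix ATH1 arrays, on which each gene is read by a set of short DNA probes. All 3 arrays of 35S::JAW and all 3 of wild type were taken, which makes 6 of the 9 arrays of the study, and all 20777 loci of the deposited log2 table were used. The other 3 arrays belong to 35S::GA20OX, a line that overexpresses a gibberellin-synthesis enzyme; they entered the fit, where they added to the estimate of the spread, and their values are given beside some results. Plants of all 3 genotypes were Arabidopsis thaliana Col-0 at growth stage 1.03, raised on MS medium at 22 °C with 16 h of light and 8 h of dark, and RNA came from the vegetative part. The 35S::JAW seedlings carried JAW, the locus of miR319a, under the 35S promoter of cauliflower mosaic virus, which is active in most cell types. Whether 35S::JAW was 1 insertion line or several, or how many seedlings were pooled for an array, is not stated in the labels. The 3 arrays a genotype are labelled as biological repeats, and this number limits the precision of every value. The study concerns different means by which leaves become larger.

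MicroRNA miR319 pairs with the transcripts of 5 TCP transcription factor genes of the CIN type and directs their cleavage. CIN-type TCP proteins act in growing leaves, where they bring cell division to an end from the tip downwards and promote differentiation. Overproduction of miR319 in the jaw-D mutant gives large, crinkled leaves with excess growth at the margin, and TCP proteins of this type are also known to bind the promoter of LOX2, a gene of jasmonate synthesis.

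The arrays were alike in overall distribution: their medians lay between 6.35 and 6.41 on the log2 scale, and 35S::JAW and wild-type arrays correlated across loci at Pearson's r of 0.9911 to 0.9927, a description only, since loci do not vary independently. The median SD among 3 arrays was 0.0926 in 35S::JAW, 0.0889 in 35S::GA20OX and 0.0867 in wild type. Replicate 2 of 35S::JAW had the highest lower quartile of the 9 arrays, 4.42. The labelled tissue was checked against marker genes. The 7 measured genes of photosynthesis in shoots had log2 values of 13.39 to 14.33 in 35S::JAW and 13.29 to 14.33 in wild type. Seed storage markers stayed at or below 4.66 in 35S::JAW and 4.45 in wild type, while the root markers ranged from 3.38 to 7.78 in 35S::JAW and from 3.51 to 7.84 in wild type, with SCR the highest. None of 10 root, 12 seed, 10 trichome or 7 photosynthesis markers was called, and of 10 floral organ markers only SEP1 was, with 4.22, 4.31 and 4.24 in 35S::JAW, against 3.98, 4.03 and 4.03 in wild type and a log2 difference of 0.24 ± 0.06. SEP1 was no longer called in 7 of the 9 fits with 1 array left out (adjusted p = 0.133 without wild type replicate 1). In bulk tissue, fewer cells of a type and less RNA per cell cannot be told apart.

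In 35S::JAW seedlings the TCP genes that miR319 targets were lower than in wild type, as were several genes of jasmonate synthesis, of the Aux/IAA family and of late anthocyanin synthesis. Several genes of abscisic acid receptors, SWEET sugar transporters, ethylene synthesis and signalling and dark-induced metabolism were higher, each for the members named as higher further on. Of 20777 loci, 902 were higher and 827 lower in 35S::JAW than in wild type at an adjusted p of at most 0.05 (limma with Benjamini-Hochberg adjustment over all loci), shares of 4.34% and 3.98%, or 8.32% in either direction. A locus past this threshold is called here, and is said to have risen or fallen. The differences were mostly small: 977 of the 1729 called loci differed by less than 0.5 on the log2 scale, the median was 0.45 for called higher loci and -0.47 for called lower loci, and over all loci it was 0.013. By at least 2-fold, 67 loci (0.322%) were higher and 101 (0.486%) lower. The large changes lay on the lower side, with 21 called loci below -2 against 5 above 2, and 5 below -3 against 0 above 3. Calls were scarce among dim loci: 0.905% of the dimmest quartile by mean level were called, against 8.38%, 12.2% and 11.8% in the quartiles above it. The 3 arrays of 35S::JAW and the 3 of wild type did not overlap at 5329 loci, 25.6% of all, and at 1725 of the 1729 called. For a called locus, lack of overlap therefore adds little, and it is given below as a description.

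**Figure D1:**
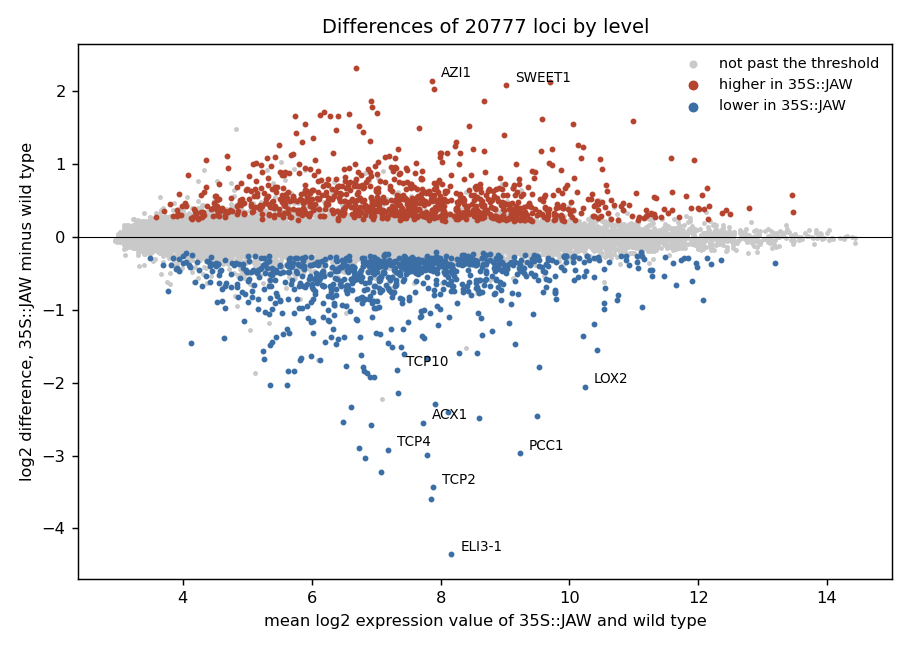
Each point is 1 of 20777 loci, with its mean log2 expression value over 35S::JAW and wild type on the horizontal axis and the log2 difference, 35S::JAW minus wild type, on the vertical axis. The 902 called higher loci end near 2.32, while the 827 called lower loci reach down to -4.36 at ELI3-1.

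Leaving out 1 array in turn, including those of 35S::GA20OX, left 907 of the 1729 loci called in all 9 fits, 466 higher and 441 lower, and 158 of the 168 loci past 2-fold. Without wild type replicate 1 the counts were 589 higher and 546 lower, and without wild type replicate 3 they were 548 and 526. The 2-fold counts moved less, to between 57 and 78 higher and between 99 and 106 lower. The threshold itself cut through a dense range: the last loci inside it were AT4G08960 with -0.21 ± 0.06 and AT3G11690 with 0.44 ± 0.12 (adjusted p = 0.0499 for both, lost in 9 and 7 of the 9 fits, with up to 0.155 without 35S::JAW replicate 1 and 0.164 without 35S::JAW replicate 1), and the first outside were AT2G16900 with 0.24 ± 0.07 (adjusted p = 0.0503) and AT2G31730 with 0.40 ± 0.11 (adjusted p = 0.0504).

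The 5 TCP genes that miR319 targets were measured on every array and check the label of the line. TCP2 (AT4G18390) had log2 values of 6.22, 6.14 and 6.13 in 35S::JAW, against 9.59, 9.54 and 9.65 in wild type. TCP3 (AT1G53230) had 5.68, 5.21 and 5.48 in 35S::JAW, against 8.62, 8.65 and 8.78 in wild type. TCP4 (AT3G15030) had 5.52, 5.92 and 5.74 in 35S::JAW, against 8.72, 8.65 and 8.58 in wild type. For each of these genes every 35S::JAW array lay far below every wild-type array. TCP24 (AT1G30210) had 5.17, 5.15 and 5.36 in 35S::JAW, against 7.72, 7.88 and 7.68 in wild type, and TCP10 (AT2G31070) had 6.55, 6.16 and 6.52 in 35S::JAW, against 8.29, 8.18 and 8.24 in wild type. The groups were apart here as well, and TCP10 kept the largest share of its wild-type signal, at a difference of -1.83 ± 0.10, which is 3.55-fold lower in 35S::JAW. On the 35S::GA20OX arrays the same genes stood near the wild-type values, with 9.55, 9.43 and 9.58 in 35S::GA20OX for TCP2 and 8.22, 8.28 and 8.19 in 35S::GA20OX for TCP10. All 5 fell in 35S::JAW, with a median difference of -2.92 and -3.43 to -1.83 as the range.

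The CIN-type TCP genes that lack a site for miR319 went the other way or did not pass. TCP5 (AT5G60970) had 6.96, 6.56 and 6.97 in 35S::JAW, against 6.32, 6.16 and 6.22 in wild type, a difference of 0.60 ± 0.11 (adjusted p = 0.00555). TCP13 (AT3G02150) had 7.54, 7.13 and 7.34 in 35S::JAW, against 6.70, 6.77 and 6.68 in wild type, a difference of 0.62 ± 0.11 (adjusted p = 0.00476). Both rose, with no overlap between the genotypes. TCP17 (AT5G08070) had 5.93, 5.81 and 5.89 in 35S::JAW, against 5.67, 5.63 and 5.59 in wild type and missed the threshold (adjusted p = 0.058), although its arrays did not overlap either. Of 9 other TCP genes measured 2 rose (22.2%, against 4.34% of all loci) and 7 were not called, with a median difference of 0.10. TCP14 and TCP15, class I factors that promote cell proliferation in internodes and young organs, were the ones called. TCP15 (AT1G69690) had 8.84, 8.94 and 8.90 in 35S::JAW, against 8.40, 8.33 and 8.45 in wild type (difference 0.50 ± 0.07) and TCP14 (AT3G47620) had 9.33, 9.43 and 9.46 in 35S::JAW, against 9.21, 9.18 and 9.13 in wild type (difference 0.23 ± 0.06). The call of TCP14 depended on the full set of arrays, since it was lost in 9 of the 9 fits with 1 array left out, with adjusted p = 0.168 without wild type replicate 3.

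**Figure D2:**
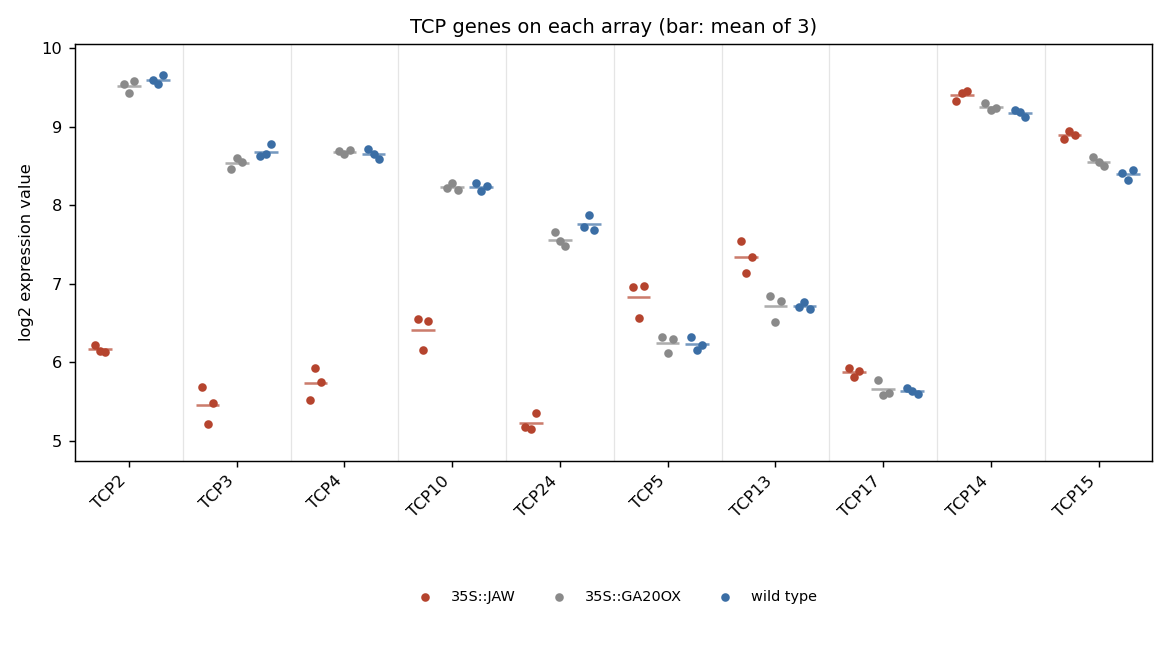
Log2 expression values of 10 TCP genes on each array, with the 3 arrays of 35S::JAW, 35S::GA20OX and wild type from left to right within a gene and a bar at each mean of 3. The 5 miR319-targeted genes on the left sit far lower in 35S::JAW than in the other genotypes, while TCP5, TCP13, TCP14 and TCP15 sit above wild type.

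Genes described or proposed as targets of CIN-type TCP proteins were lower or not called. Of 11 measured, 6 fell (54.5%, against 3.98% of all loci) and 0 rose, and all 6 were called with each array left out in turn. Like all gene lists here, this list was chosen with earlier results of these data known, so its share is a description and not a test. The median difference was -0.55. LOX2 (AT3G45140), a lipoxygenase of jasmonate synthesis, had 9.18, 9.17 and 9.28 in 35S::JAW, against 11.27, 11.29 and 11.25 in wild type, which is 4.16-fold lower in 35S::JAW. HAT2 (AT5G47370), an auxin-induced homeodomain-leucine zipper factor, had 7.12, 6.98 and 6.79 in 35S::JAW, against 8.68, 8.58 and 8.63 in wild type. DWF4 (AT3G50660), the rate-limiting hydroxylase of brassinosteroid synthesis, had 7.05, 7.32 and 7.07 in 35S::JAW, against 8.05, 8.39 and 8.26 in wild type. All of these were lower on each 35S::JAW array than on any wild-type array. The small auxin-induced gene SAUR65, the cytokinin response regulator ARR16 and the zinc finger gene GIS (AT3G58070) also fell, by 1.37, 1.06 and 0.55 on the log2 scale. The 5 members that were not called were AS1 (AT2G37630), KRP1, YUC5, CO and IAA3, with log2 differences of -0.19 ± 0.09, -0.18 ± 0.08, -0.12 ± 0.11, -0.11 ± 0.08 and 0.19 ± 0.11.

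The enzymes of jasmonate synthesis, which turn plastid fatty acids into the hormone, fell at several steps and not at others. Of 12 measured, in a list put together after values were seen, 5 fell and 1 rose (41.7% and 8.33%, against 3.98% and 4.34% of all loci). The median difference was -0.17, and all 6 calls held with each array left out. Beside LOX2, the largest decrease was in ACX1 (AT4G16760), a peroxisomal acyl-CoA oxidase, with 6.42, 6.34 and 6.58 in 35S::JAW, against 9.0, 8.84 and 9.15 in wild type, 5.86-fold lower in 35S::JAW. AOS (AT5G42650), allene oxide synthase, had 9.34, 9.30 and 9.23 in 35S::JAW, against 10.08, 9.93 and 9.92 in wild type, and JAR1 (AT2G46370), which joins jasmonate to isoleucine, had 8.33, 8.18 and 8.21 in 35S::JAW, against 8.89, 8.95 and 8.78 in wild type. JMT (AT1G19640), which methylates jasmonate, was dim, with 3.72, 3.55 and 3.63 in 35S::JAW, against 4.11, 3.89 and 4.04 in wild type. Each of these genes was lower on all 3 35S::JAW arrays than on any wild-type array. LOX6, another lipoxygenase, rose by 0.38 ± 0.07, and OPR3 and AOC4 had differences of -0.04 ± 0.08 and 0.04 ± 0.07, which were not called. Of 10 JAZ repressors of jasmonate signalling, also listed after values were seen, 2 rose and 1 fell (20% and 10%, against 4.34% and 3.98% of all loci). JAZ1 (AT1G19180) fell, with 4.65, 4.54 and 4.83 in 35S::JAW, against 5.80, 5.72 and 5.47 in wild type, while JAZ6 (AT1G72450) and JAZ9 (AT1G70700) rose by 0.62 ± 0.10 and 0.52 ± 0.12. The call of JAZ9 was lost in 3 of the 9 fits with 1 array left out (adjusted p = 0.063 without wild type replicate 3).

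The largest decrease of all was outside these pathways. ELI3-1 (AT4G37980), a leaf aldehyde reductase of the cinnamyl alcohol dehydrogenase family, had 6.0, 5.92 and 6.05 in 35S::JAW, against 10.36, 10.36 and 10.32 in wild type and 10.68, 10.60 and 10.64 in 35S::GA20OX. That is 20.5-fold lower in 35S::JAW than in wild type, at an adjusted p of 1.2e-11. Next came a gene without a name here, AT3G16670, with 5.92, 6.31 and 5.90 in 35S::JAW, against 9.64, 9.43 and 9.87 in wild type. AT1G31680 and AT1G31690, whose locus codes are adjacent, had 5.37, 5.23 and 5.35 in 35S::JAW, against 8.50, 8.19 and 8.34 in wild type for the first and 5.92, 6.46 and 6.49 in 35S::JAW, against 9.28, 9.13 and 9.44 in wild type for the second. All 4 loci were lower on every 35S::JAW array than on any wild-type array. This follows from the choice, since the lowest loci were taken among called loci whose arrays did not overlap between the genotypes. AT1G51090 had 4.77, 5.59 and 5.48 in 35S::JAW, against 8.19, 8.03 and 8.31 in wild type, and AT5G02760 had 7.26, 7.36 and 7.43 in 35S::JAW, against 9.64, 10.01 and 9.85 in wild type. Further down the ranking were AT3G05730 with a difference of -2.45 ± 0.20, AT5G12050 with -2.40 ± 0.16, AT3G51660 with -2.14 ± 0.06, AT4G36700 with -2.03 ± 0.24 and AT3G02480 with -2.03 ± 0.27. AT4G36700 was also low in 35S::GA20OX, with 5.56, 4.40 and 5.10 in 35S::GA20OX, and differed between the lines by -0.68 ± 0.24 (adjusted p = 0.0861).

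On the higher side, AT5G01740 had the largest difference, 2.32 ± 0.09, with 7.99, 7.83 and 7.72 in 35S::JAW, against 5.55, 5.60 and 5.44 in wild type. AT2G05540 had 10.77, 10.60 and 10.90 in 35S::JAW, against 8.68, 8.67 and 8.55 in wild type. SWEET1 (AT1G21460), a glucose transporter of the plasma membrane, had 9.92, 10.15 and 10.09 in 35S::JAW, against 7.99, 8.02 and 7.91 in wild type, 4.23-fold higher in 35S::JAW. Like all of the 25 highest, these loci were chosen among called loci whose arrays did not overlap between the genotypes. AT3G60290 and AT4G21870 rose by 1.87 ± 0.11 and 1.86 ± 0.10. SCPL7 (AT3G10450), a serine carboxypeptidase-like protein, had 7.20, 6.77 and 7.19 in 35S::JAW, against 5.38, 5.30 and 5.33 in wild type. AT4G19380, AT3G50560 and AT3G16530 rose by 1.69 ± 0.14, 1.67 ± 0.10 and 1.63 ± 0.13. MEE3 (AT2G21650), a small MYB-like protein, had 7.49, 7.02 and 7.22 in 35S::JAW, against 5.90, 5.45 and 5.37 in wild type, and ABCB21 (AT3G62150), an auxin transporter of the ABC family, had 6.63, 6.26 and 6.81 in 35S::JAW, against 4.77, 4.94 and 5.0 in wild type. Here too the lack of overlap between the genotypes was part of the choice. Among the 25 highest were also AT5G22580 with a difference of 1.59 ± 0.12, AT1G27030 with 1.53 ± 0.12 and the cytochrome P450 gene CYP71B22 (AT3G26200) with 1.43 ± 0.14. AT5G22460 had 6.73, 6.56 and 6.72 in 35S::JAW, against 5.01, 5.10 and 5.25 in wild type and was between them in 35S::GA20OX, at 6.13, 6.17 and 6.35 in 35S::GA20OX.

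Called auxin-responsive genes were all lower in 1 family and of both directions in another. Aux/IAA proteins, short-lived repressors of auxin signalling whose genes are themselves induced by auxin, had 7 lower, 0 higher and 24 not called of 31, with a median difference of -0.13, and 6 of the 7 held with each array left out. The lower ones were 22.6% of the family, against 3.98% of all loci. IAA29 (AT4G32280) had 5.45, 5.56 and 4.87 in 35S::JAW, against 6.95, 6.97 and 7.01 in wild type, and IAA1 (AT4G14560) had 5.95, 6.12 and 5.78 in 35S::JAW, against 7.72, 7.60 and 7.40 in wild type. IAA2 (AT3G23030) had 7.62, 7.22 and 7.60 in 35S::JAW, against 8.41, 8.57 and 8.29 in wild type. All 3 were lower on every 35S::JAW array. SAUR genes, small auxin-induced genes of cell expansion, had 12 lower and 7 higher of 56 (21.4% and 12.5%, against 3.98% and 4.34% of all loci), with a median of -0.02. Of these calls 8 and 4 held with each array left out. The lower ones included a row of neighbours on chromosome 1, looked at after its values were seen: SAUR63 (AT1G29440) with -1.35 ± 0.17, AT1G29450 with -0.78 ± 0.07, SAUR65 (AT1G29460) with -1.37 ± 0.15, AT1G29500 with -1.09 ± 0.08 and SAUR68 (AT1G29510) with -0.98 ± 0.11. These genes are similar to each other, and whether their probes are shared was not checked. AT4G34770 was the highest of the family, with 7.53, 7.42 and 7.56 in 35S::JAW, against 5.96, 5.99 and 5.98 in wild type. AT3G53250 had 7.43, 7.61 and 7.51 in 35S::JAW, against 6.01, 6.51 and 5.71 in wild type, with 6.98, 6.90 and 6.69 in 35S::GA20OX, which was not called against wild type (adjusted p = 0.0941). Both sets of arrays were apart for AT4G34770 and AT3G53250, in the opposite direction to the row on chromosome 1. AIR3 (AT2G04160), a subtilisin-like protease induced by auxin in roots, had 5.77, 6.04 and 6.20 in 35S::JAW, against 8.05, 7.68 and 8.05 in wild type, and MAKR6 (AT5G52900), a membrane-associated kinase regulator, had 6.10, 5.80 and 5.80 in 35S::JAW, against 7.88, 7.92 and 7.41 in wild type.

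Brassinosteroids are growth-promoting steroid hormones. Of 17 genes of their synthesis, breakdown and response, a list put together after values were seen, 4 rose and 4 fell, with a median difference of 0.065. Each was a share of 23.5%, against 4.34% higher and 3.98% lower over all loci. PRE1 (AT5G39860), a small helix-loop-helix protein that promotes cell elongation, had 6.30, 5.38 and 6.12 in 35S::JAW, against 7.87, 7.75 and 7.96 in wild type and 8.79, 8.40 and 8.63 in 35S::GA20OX, where 35S::GA20OX was not called against wild type (adjusted p = 0.191). BAS1 (AT2G26710), a cytochrome P450 that inactivates brassinosteroids, had 5.42, 5.25 and 5.41 in 35S::JAW, against 6.72, 6.65 and 6.68 in wild type. ROT3 (AT4G36380), a synthesis enzyme known for its effect on leaf length, had 6.38, 6.08 and 6.28 in 35S::JAW, against 5.31, 5.28 and 5.50 in wild type. BEE3 (AT1G73830), a helix-loop-helix factor induced by the hormone, had 9.22, 9.05 and 9.07 in 35S::JAW, against 7.94, 8.09 and 7.67 in wild type. ROT3 and BEE3 were higher on each 35S::JAW array, in contrast to PRE1, BAS1 and DWF4. BIN2 (AT4G18710), the kinase that restrains the pathway, and DWF1 (AT3G19820), an early synthesis enzyme, rose by 0.46 ± 0.08 and 0.34 ± 0.07, and CYP90D1 (AT3G13730) fell by 0.42. DWF1 was no longer called in 1 of the 9 fits with 1 array left out (adjusted p = 0.0512 without 35S::JAW replicate 3), and CYP90D1 in 4 (adjusted p = 0.0827 without wild type replicate 3). The receptor gene BRI1 had a difference of -0.03 ± 0.06 and was not called.

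Type-A response regulators are induced by cytokinin and damp its signal. This list and that of the KISS ME DEADLY genes were put together after values were seen. Of 10 regulators measured 3 rose and 1 fell (30% and 10%, against 4.34% and 3.98% of all loci), with a median of 0.11. ARR16 (AT2G40670) had 4.95, 4.94 and 4.55 in 35S::JAW, against 5.78, 6.11 and 5.71 in wild type. ARR5 (AT3G48100) had 7.62, 7.11 and 7.65 in 35S::JAW, against 6.45, 6.82 and 6.20 in wild type, ARR6 (AT5G62920) had 8.09, 7.76 and 7.93 in 35S::JAW, against 7.07, 7.56 and 7.11 in wild type, and ARR15 rose by 0.52 ± 0.10. ARR16 alone among the called members was lower on every 35S::JAW array. KISS ME DEADLY F-box proteins mark the activating type-B response regulators for breakdown. All 3 of their genes measured rose, KMD2 (AT1G15670) with 6.74, 6.55 and 6.54 in 35S::JAW, against 5.86, 6.08 and 5.74 in wild type, KMD1 (AT1G80440) with 10.48, 10.31 and 10.17 in 35S::JAW, against 9.60, 9.78 and 9.44 in wild type and KMD4 (AT3G59940) by 0.28 ± 0.07. ARR6 was no longer called in 4 of the 9 fits with 1 array left out (adjusted p = 0.0842 without wild type replicate 3), and KMD4 in 8 (adjusted p = 0.169 without wild type replicate 3).

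Genes of the abscisic acid receptors, the PYR and PYL proteins, were higher or not called: of 10 measured 6 rose (60%, against 4.34% of all loci) and 0 fell. The median difference was 0.46 against 0.013 over all loci, and all 6 calls held with each array left out. The list was put together after values were seen. PYL5 (AT5G05440) had 8.64, 8.31 and 8.30 in 35S::JAW, against 6.81, 7.26 and 6.70 in wild type, 2.82-fold higher in 35S::JAW. PYL6 (AT2G40330) had 7.31, 6.80 and 7.22 in 35S::JAW, against 5.44, 5.85 and 5.61 in wild type, and PYL4 (AT2G38310) had 10.93, 10.69 and 10.87 in 35S::JAW, against 9.53, 9.87 and 9.40 in wild type. In all 3 genes wild type replicate 2 was the highest wild-type array and stayed below the lowest 35S::JAW array. PYR1 (AT4G17870) had 9.82, 9.62 and 9.66 in 35S::JAW, against 9.01, 9.02 and 9.0 in wild type, and PYL1 (AT5G46790) and PYL8 (AT5G53160) rose by 0.45 ± 0.07 and 0.38 ± 0.06. PYL7 and PYL9 had -0.18 ± 0.08 and -0.06 ± 0.07 and were not called.

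Genes of the abscisic acid and cold response were lower or not called. Of 14 measured 5 fell (35.7%, against 3.98% of all loci) and 0 rose, with a median of -0.25. This list too was chosen with earlier results of these data known. COR15A (AT2G42540), a protective protein of chloroplasts, had 9.25, 10.12 and 9.59 in 35S::JAW, against 11.21, 11.14 and 11.24 in wild type and 11.58, 11.78 and 12.29 in 35S::GA20OX. CBF3 (AT4G25480), a factor that switches on the cold response, had 6.09, 6.10 and 6.05 in 35S::JAW, against 7.24, 6.66 and 7.39 in wild type. COR15B (AT2G42530) and RD29A (AT5G52310) had 9.83, 10.39 and 10.03 in 35S::JAW, against 10.94, 11.03 and 10.99 in wild type for COR15B and 9.19, 9.63 and 9.28 in 35S::JAW, against 10.14, 10.25 and 10.26 in wild type for RD29A. The genotypes did not overlap, and 35S::GA20OX was not called against wild type for COR15A (adjusted p = 0.272). NCED3, which makes the precursor of abscisic acid in drought, fell by 0.64. NCED3 was no longer called in 1 of the 9 fits with 1 array left out (adjusted p = 0.0567 without wild type replicate 3). RAB18 had a difference of 0.48 ± 0.17 in the opposite direction and was not called (adjusted p = 0.114). GolS3 (AT1G09350), a cold-induced galactinol synthase and one of the 25 lowest loci, had 6.0, 6.02 and 5.78 in 35S::JAW, against 7.76, 7.68 and 7.94 in wild type.

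Ethylene genes rose where they were called. Of 15 measured 5 rose (33.3%, against 4.34% of all loci) and 0 fell, with a median difference of 0.17, and 4 of the 5 held with each array left out. This list too was chosen with earlier results of these data known. EFE (AT1G05010), an ACC oxidase, which releases ethylene from its precursor, had 12.18, 12.19 and 12.23 in 35S::JAW, against 11.81, 11.89 and 11.76 in wild type. ETR2 (AT3G23150), a receptor, had 5.67, 5.83 and 5.92 in 35S::JAW, against 5.02, 5.28 and 5.03 in wild type, and EBF2 (AT5G25350), an F-box protein that removes the factor EIN3, rose by 0.43 ± 0.07. ERS2 was no longer called in 4 of the 9 fits with 1 array left out (adjusted p = 0.0678 without 35S::JAW replicate 2). EIN3 itself had a difference of 0.11 ± 0.08 and was not called. EBP (AT3G16770), a group VII ethylene response factor, had 10.82, 10.86 and 10.83 in 35S::JAW, against 9.12, 9.64 and 9.08 in wild type, 2.93-fold higher in 35S::JAW.

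**Figure D3:**
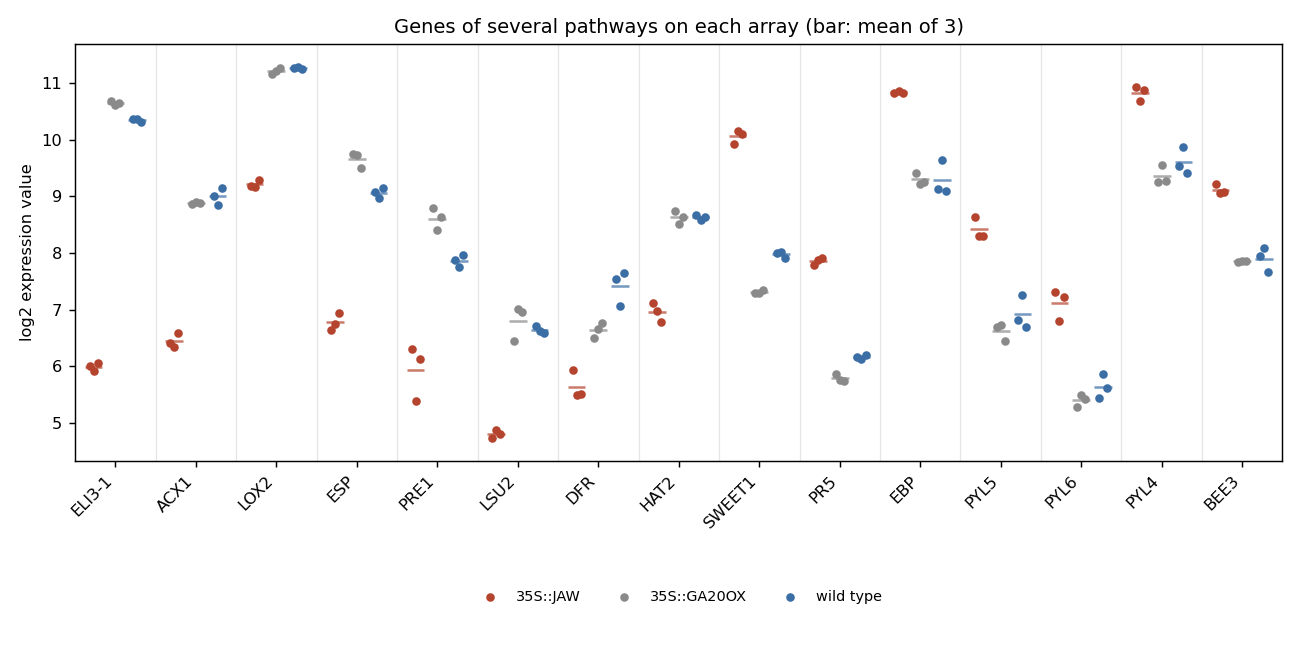
Log2 expression values of 15 genes of several pathways on each array, with 35S::JAW, 35S::GA20OX and wild type from left to right within a gene and a bar at each mean of 3. The 8 genes on the left, from ELI3-1 to HAT2, are lower and the 7 on the right, from SWEET1 to BEE3, higher on every 35S::JAW array than on any wild-type array.

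Several genes of the late steps of anthocyanin synthesis, the pathway of red leaf pigments, were lower, and the early flavonoid genes CHS, CHI and F3H were not called. Of 16 measured 5 fell (31.2%, against 3.98% of all loci) and 0 rose, with a median of -0.12, and all 5 held with each array left out. The list was put together after values were seen. DFR (AT5G42800), dihydroflavonol reductase, had 5.92, 5.49 and 5.51 in 35S::JAW, against 7.54, 7.06 and 7.64 in wild type. GSTF12 (AT5G17220), which carries anthocyanins to the vacuole, had 6.16, 6.10 and 5.95 in 35S::JAW, against 7.58, 7.18 and 7.56 in wild type. PAP1 (AT1G56650), the MYB factor that activates these steps, had 4.21, 4.25 and 4.07 in 35S::JAW, against 5.05, 5.01 and 5.10 in wild type. The glycosyltransferases UGT75C1 (AT4G14090) and UGT79B1 (AT5G54060) fell by 1.14 and 1.07. Each of the 5 was lower on every 35S::JAW array than on any wild-type array. CHS, CHI and F3H, which make the flavonoid skeleton, had differences of -0.25 ± 0.13, -0.03 ± 0.08 and -0.20 ± 0.11. The glycosyltransferase gene UGT78D2 and the regulator genes TT8 and PAP2 of the same list were not called either. Their differences were -0.11 ± 0.08, -0.12 ± 0.09 and 0.15 ± 0.08. PAP1 also fell in 35S::GA20OX, with 4.36, 4.36 and 4.50 in 35S::GA20OX (adjusted p = 0.00386 against wild type). So did GSTF12, UGT75C1 and UGT79B1, by -0.76 ± 0.11, -0.79 ± 0.12 and -0.73 ± 0.13, 35S::GA20OX minus wild type (adjusted p = 0.0153, 0.0186 and 0.0451). DFR had 6.50, 6.66 and 6.76 in 35S::GA20OX and was not called there (adjusted p = 0.0786). Between the lines DFR differed by -1.0 ± 0.16 (adjusted p = 0.00157), 35S::JAW minus 35S::GA20OX, and GSTF12 by -0.61 ± 0.11 (adjusted p = 0.00362). PAP1, UGT75C1 and UGT79B1 differed by -0.23 ± 0.07, -0.35 ± 0.12 and -0.34 ± 0.13 and were not called between the lines (adjusted p = 0.0603, 0.0778 and 0.111).

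Several sugar transporter genes and genes of low sugar were higher. SWEET proteins let sugars pass out of cells or vacuoles. Of 17 measured 5 rose and 1 fell (29.4% and 5.88%, against 4.34% and 3.98% of all loci), with a median of 0.19. The list was put together after values were seen, and all 6 calls held with each array left out. Beside SWEET1, the vacuolar transporters SWEET16 (AT3G16690) and SWEET17 (AT4G15920) rose by 0.80 ± 0.10 and 0.57 ± 0.08, and SWEET11 (AT3G48740) and SWEET12 (AT5G23660), which load sucrose into the phloem, had 11.07, 11.07 and 11.04 in 35S::JAW, against 10.60, 10.67 and 10.51 in wild type for SWEET11 and 8.87, 8.99 and 8.74 in 35S::JAW, against 8.29, 8.39 and 8.35 in wild type for SWEET12. SWEET13 (AT5G50800) was the called member that fell, with 4.65, 5.59 and 4.78 in 35S::JAW, against 6.88, 6.47 and 6.65 in wild type. Genes induced by darkness or sugar starvation, a list chosen with earlier results of these data known, had 6 higher (46.2%, against 4.34% of all loci) and 0 lower of 13, with a median of 0.36. ASN1 (AT3G47340), asparagine synthetase, had 9.22, 8.43 and 9.11 in 35S::JAW, against 6.75, 7.44 and 6.46 in wild type. SEN1 (AT4G35770) had 9.95, 9.37 and 9.73 in 35S::JAW, against 8.10, 8.65 and 8.12 in wild type, and DIN10 (AT5G20250), a raffinose synthase-like protein, had 11.06, 10.80 and 11.06 in 35S::JAW, against 9.73, 10.63 and 9.74 in wild type. BT5 (AT4G37610), a BTB and TAZ domain protein, had 8.65, 7.09 and 7.75 in 35S::JAW, against 5.82, 6.39 and 5.92 in wild type. For these 4 genes wild type replicate 2 was the highest wild-type array and 35S::JAW replicate 2 the lowest of its group, and the groups stayed apart. DIN10 was no longer called in 6 of the 9 fits with 1 array left out (adjusted p = 0.156 without wild type replicate 3), TPS10 in 4 (adjusted p = 0.128 without wild type replicate 1), and BCAT2 in 6 (adjusted p = 0.122 without 35S::JAW replicate 3). BT2 had 8.15, 6.90 and 7.62 in 35S::JAW, against 6.25, 6.94 and 6.77 in wild type and was not called (adjusted p = 0.0599), with 35S::JAW replicate 2 inside the wild-type range.

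Defence genes did not move as a block. Of 16 genes of salicylic acid and systemic defence 3 rose and 2 fell (18.8% and 12.5%, against 4.34% and 3.98% of all loci), with a median of -0.10. PCC1 (AT3G22231), a gene under pathogen and clock control, had 7.49, 7.12 and 8.63 in 35S::JAW, against 10.71, 11.22 and 10.21 in wild type, 7.82-fold lower in 35S::JAW. WRKY70 (AT3G56400), a factor of salicylic acid signalling, had 8.01, 7.04 and 7.03 in 35S::JAW, against 8.66, 9.18 and 7.88 in wild type, and here 35S::JAW replicate 1 lay above wild type replicate 3. WRKY70 was no longer called in 5 of the 9 fits with 1 array left out (adjusted p = 0.132 without 35S::JAW replicate 3). WRKY54 (AT2G40750), its close relative, had 5.81, 5.56 and 5.73 in 35S::JAW, against 7.02, 7.55 and 6.74 in wild type without overlap. LURP1 (AT2G14560), needed for full basal defence, had 5.05, 5.51 and 5.78 in 35S::JAW, against 8.25, 8.16 and 6.92 in wild type, with wild type replicate 3 below the other two. The genes that rose were PR5 (AT1G75040), a thaumatin-like protein, with 7.78, 7.87 and 7.92 in 35S::JAW, against 6.16, 6.12 and 6.20 in wild type, AZI1 (AT4G12470), a lipid-transfer-like protein of systemic immunity, with 8.20, 8.94 and 9.67 in 35S::JAW, against 6.21, 7.71 and 6.46 in wild type, and DIR1 (AT5G48485), another such protein, with 9.47, 9.32 and 9.33 in 35S::JAW, against 8.71, 8.64 and 8.56 in wild type. PR1, the usual marker of salicylic acid, had 5.05, 5.04 and 5.17 in 35S::JAW, against 5.0, 5.16 and 5.17 in wild type and a difference of -0.03 ± 0.07. ICS1 and EDS1, which act in the synthesis and signalling of salicylic acid, had -0.39 ± 0.14 and -0.10 ± 0.09 and were not called. The neighbouring receptor-like kinase genes CRK21 (AT4G23290) and CRK22 (AT4G23300) had 8.02, 7.57 and 7.74 in 35S::JAW, against 9.34, 9.41 and 9.34 in wild type for CRK21 and 5.79, 5.28 and 5.80 in 35S::JAW, against 8.23, 8.13 and 8.27 in wild type for CRK22. A further member of that family, CRK12 (AT4G23200), rose by 1.31 ± 0.29. CRK12 was no longer called in 3 of the 9 fits with 1 array left out (adjusted p = 0.0718 without wild type replicate 3).

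Genes of the low-sulfur response were lower where called, and genes of glucosinolate breakdown were of both directions. Of 9 genes induced by low sulfur, in a list put together after values were seen, 5 fell (55.6%, against 3.98% of all loci) and 0 rose, with a median of -0.46. LSU2 (AT5G24660) had 4.73, 4.87 and 4.81 in 35S::JAW, against 6.71, 6.62 and 6.58 in wild type. APR1 (AT4G04610), a sulfate-reducing enzyme, had 8.04, 7.91 and 8.01 in 35S::JAW, against 8.73, 8.61 and 8.75 in wild type, and its relatives APR2 and APR3 fell by 0.46 and 0.37. BGLU28 (AT2G44460) fell by 0.71. APR3 was no longer called in 5 of the 9 fits with 1 array left out (adjusted p = 0.119 without 35S::JAW replicate 3), and BGLU28 in 5 (adjusted p = 0.0914 without 35S::JAW replicate 2). Of 6 genes of glucosinolate breakdown, also listed after values were seen, 1 rose and 1 fell (16.7% each, against 4.34% and 3.98% of all loci). ESP (AT1G54040), the epithiospecifier protein that steers glucosinolate breakdown, had 6.63, 6.74 and 6.95 in 35S::JAW, against 9.08, 8.97 and 9.15 in wild type and 9.74, 9.73 and 9.51 in 35S::GA20OX, so 35S::JAW was lowest and 35S::GA20OX highest. MYB34 (AT5G60890), a regulator of indole glucosinolates, had 6.47, 6.37 and 6.34 in 35S::JAW, against 7.72, 7.17 and 7.58 in wild type. PEN3 (AT1G59870), a transporter of the plasma membrane that acts in penetration resistance, rose by 0.30 ± 0.07. PEN3 was no longer called in 5 of the 9 fits with 1 array left out (adjusted p = 0.0957 without wild type replicate 3). ESM1, NSP5 and PEN2, which also act in glucosinolate breakdown, had differences of 0.08 ± 0.07, 0.01 ± 0.08 and 0.07 ± 0.07. Glutathione S-transferases, detoxifying enzymes, had 9 lower and 3 higher of 43 (20.9% and 6.98%, against 3.98% and 4.34% of all loci), with a median of -0.12. Of these calls 7 and 2 held with each array left out. GSTU1 (AT2G29490) had 5.41, 5.81 and 5.73 in 35S::JAW, against 7.08, 7.21 and 7.05 in wild type. GSTU24 (AT1G17170) had 4.40, 4.95 and 4.77 in 35S::JAW, against 5.09, 7.66 and 6.87 in wild type, a wide spread within wild type. GSTU24 was no longer called in 8 of the 9 fits with 1 array left out (adjusted p = 0.164 without wild type replicate 3).

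Regulators of leaf form changed singly. Of 20 leaf size genes 3 rose and 3 fell (15% each, against 4.34% higher and 3.98% lower over all loci), with a median of -0.021. KLU (AT1G13710), a cytochrome P450 that prolongs organ growth, had 5.35, 5.69 and 5.75 in 35S::JAW, against 6.36, 6.44 and 6.54 in wild type. GIF1 (AT5G28640), a partner of growth-regulating factors, had 5.81, 5.86 and 5.93 in 35S::JAW, against 6.36, 6.33 and 6.52 in wild type, and GRF3 (AT2G36400), one such factor, had 7.42, 7.22 and 7.35 in 35S::JAW, against 6.59, 6.50 and 6.41 in wild type. GRF5 fell by 0.37 and ARL, a relative of ARGOS, rose by 0.69 ± 0.15. GRF5 was no longer called in 6 of the 9 fits with 1 array left out (adjusted p = 0.148 without wild type replicate 3), and ARL in 3 (adjusted p = 0.0679 without wild type replicate 1). KLU and GIF1 were lower and GRF3 higher on every 35S::JAW array. CYP78A8 (AT1G01190), of the same P450 family as KLU, had 6.33, 6.05 and 5.98 in 35S::JAW, against 4.91, 4.72 and 4.93 in wild type, opposite in direction to KLU. Small ROTUNDIFOLIA-like peptides, listed after values were seen, shorten organs when overproduced. Both measured members were called, RTFL5 (AT5G59510) with 3.39, 3.58 and 3.22 in 35S::JAW, against 5.09, 4.57 and 4.90 in wild type and RTFL8 (AT2G39705) with 6.20, 5.74 and 5.99 in 35S::JAW, against 4.94, 5.03 and 4.66 in wild type, the one lower and the other higher. NGATHA factors shape leaf margins, and of 8 NGATHA and STYLISH genes 2 fell (25%, against 3.98% of all loci) and 0 rose. NGA2 (AT3G61970) and NGA1 (AT2G46870) fell, with 5.73, 5.94 and 5.96 in 35S::JAW, against 6.84, 6.99 and 6.62 in wild type for NGA2 and 6.90, 6.85 and 6.79 in 35S::JAW, against 7.65, 7.52 and 7.53 in wild type for NGA1. AS2 (AT1G65620), which keeps KNOX genes off in leaves, had 6.62, 6.68 and 6.48 in 35S::JAW, against 5.84, 5.89 and 5.87 in wild type. It was the 1 called gene of 9 (11.1%, against 4.34% higher over all loci) in the boundary and KNOX list, where CUC1, CUC2 and CUC3 had differences of 0.0 ± 0.09, -0.09 ± 0.13 and 0.0 ± 0.08 at log2 values of at most 4.61 in 35S::JAW and 4.53 in wild type. STM and KNAT1 had -0.40 ± 0.11 and -0.53 ± 0.18, adjusted p = 0.0539 and 0.109. Among leaf polarity genes YAB5 (AT2G26580) and FIL (AT2G45190) rose by 0.37 ± 0.06 and 0.31 ± 0.07, and ARF3 fell by 0.34. FIL was no longer called in 3 of the 9 fits with 1 array left out (adjusted p = 0.0641 without wild type replicate 1), and ARF3 in 6 (adjusted p = 0.167 without wild type replicate 1).

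Of the transcription factor families matched by gene name, 15 members were called past 2-fold, 2 higher and 13 lower. Over all loci, 0.322% were higher and 0.486% lower by at least 2-fold, and no joint share was computed for these families. The higher ones were EBP and MYB59 (AT5G59780), with 8.71, 8.39 and 8.61 in 35S::JAW, against 7.42, 7.54 and 7.29 in wild type for MYB59. Beside the 5 TCP genes, PRE1, WRKY54, WRKY70, MYB34 and CBF3, the lower ones were MYB47 (AT1G18710) with 4.43, 4.71 and 4.14 in 35S::JAW, against 6.29, 5.90 and 6.11 in wild type, bHLH071 (AT5G46690) with 6.64, 6.49 and 6.78 in 35S::JAW, against 8.29, 8.14 and 8.30 in wild type and AT3G07340 with 5.53, 5.30 and 5.49 in 35S::JAW, against 6.55, 6.68 and 6.53 in wild type. No array of these overlapped between the genotypes except for WRKY70. The match by name missed other factors past 2-fold, so the counts are not complete, and 2 against 13 is not a result about transcription factors as a whole. Among those missed, MEE3 and BEE3 rose by 1.67 ± 0.20 and 1.21 ± 0.10, and HAT2 fell by 1.67. In the WRKY family as a whole 1 of 61 was higher and 2 lower (1.64% and 3.28%, against 4.34% and 3.98% of all loci). In the NAC family 5 were higher and 6 lower of 84, of which 1 in each direction held with each array left out. The NAC shares of 5.95% and 7.14% lay near the 4.34% and 3.98% of all loci. Below 2-fold, the class II KNOX gene KNAT3 (AT5G25220) fell by 0.95, the homeodomain gene HAT14 (AT5G06710) rose by 0.79 ± 0.08 and the NAC gene NAC3 (AT3G29035) rose by 0.95 ± 0.12.

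Families of growth machinery were read against the 4.34% higher and 3.98% lower over all loci. Cyclins had 1 higher and 1 lower of 53 (1.89% and 1.89%), core histones 1 higher and 3 lower of 22 (4.55% and 13.6%), and tubulins and kinesins 1 higher and 2 lower of 31 (3.23% and 6.45%); none of these 9 calls held with each array left out. Expansins, which loosen cell walls, had 3 higher (9.68%) and 0 lower of 31, and 1 of the 3 held with each array left out. EXPA11 (AT1G20190) had 9.67, 9.78 and 9.96 in 35S::JAW, against 9.24, 9.33 and 9.26 in wild type. Xyloglucan endotransglucosylases, which cut and rejoin wall polymers, had 4 higher and 2 lower of 33 (12.1% and 6.06%), of which 3 and 1 held. XTH7 (AT4G37800) had 12.16, 12.12 and 12.07 in 35S::JAW, against 11.02, 11.08 and 10.98 in wild type, and XTH32 (AT2G36870) had 9.89, 9.94 and 9.90 in 35S::JAW, against 9.19, 8.80 and 9.08 in wild type. Both rose without overlap. TCH4 (AT5G57560), a touch-induced member, had 9.39, 7.98 and 8.37 in 35S::JAW, against 7.32, 7.80 and 7.15 in wild type, with 35S::JAW replicate 1 apart from the other two. TCH4 was no longer called in 5 of the 9 fits with 1 array left out (adjusted p = 0.139 without wild type replicate 3). Cytochrome P450 genes had 12 higher and 14 lower of 203 (5.91% and 6.9%), of which 7 and 11 held. Genes of the chloroplast genome had 0 higher and 1 lower of 73 (1.37%), and of the mitochondrial genome 0 of 31 were called.

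**Figure D4:**
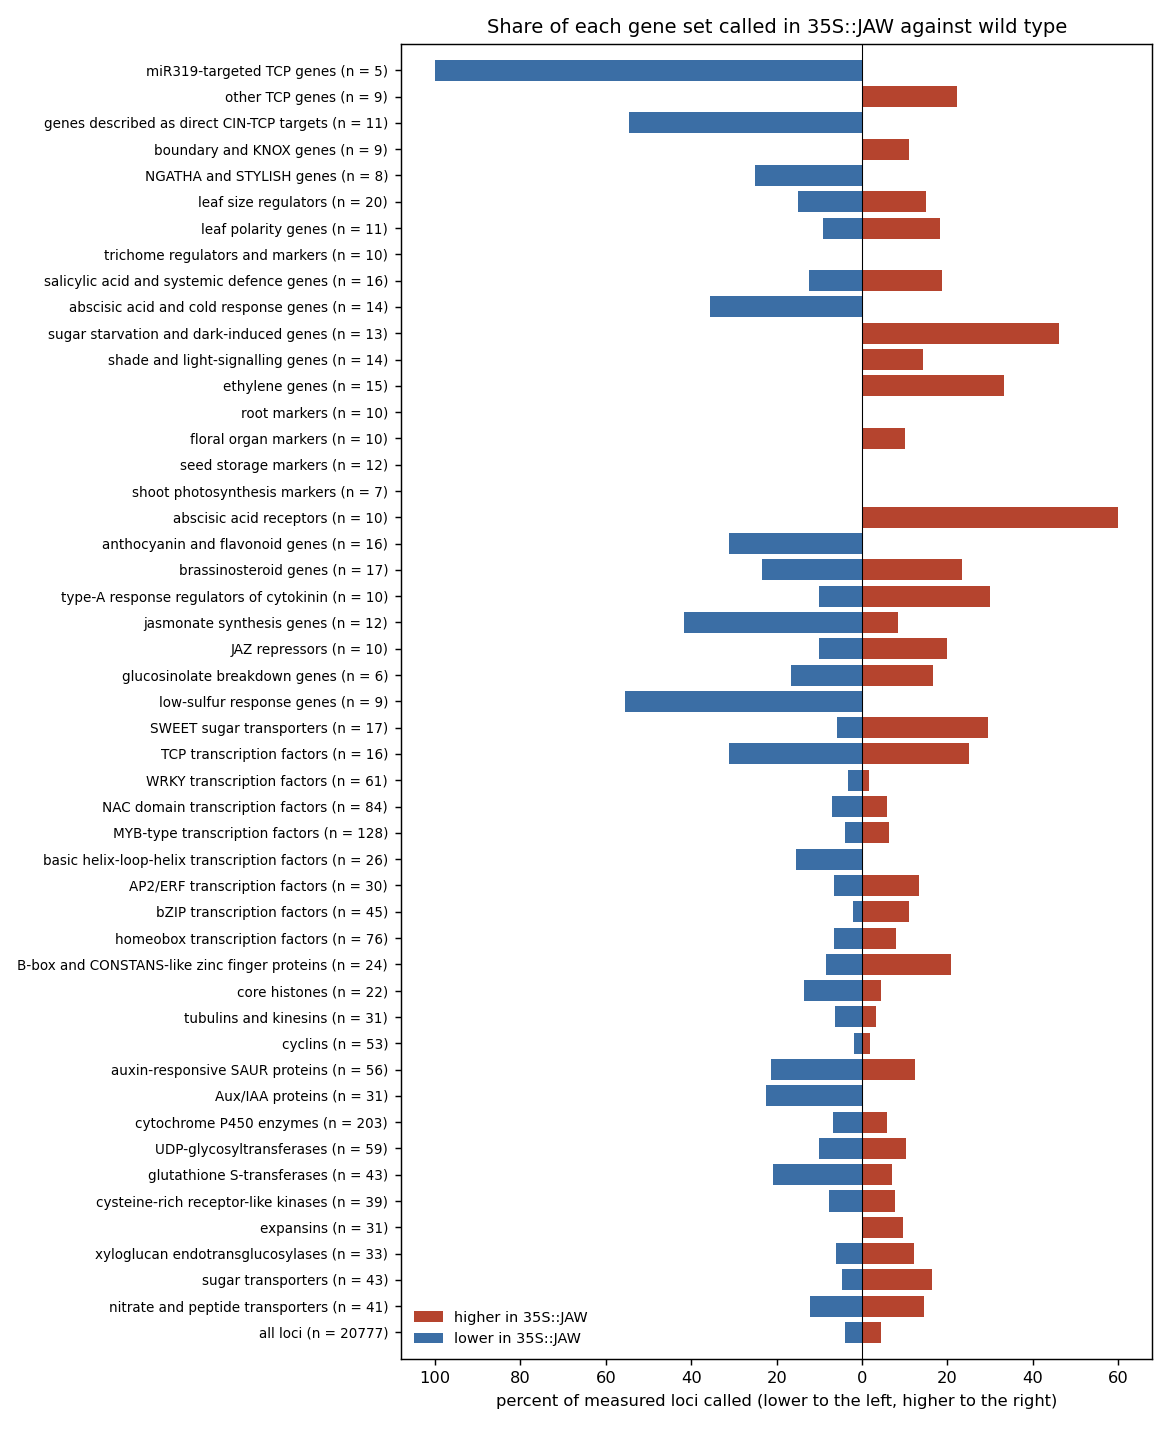
Percent of the measured loci of each gene list or family called higher (right) and called lower (left) in 35S::JAW, with the number measured in brackets and lists of under 5 loci left out. All loci, in the bottom row, had 4.34% higher and 3.98% lower.

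Called neighbours were looked for among 20496 loci put in order along the chromosomes. There were 116 runs of at least 2 loci, adjacent among the measured ones, called in the same direction, 8 of them of 3 or more. With 4.34% of all loci higher and 3.98% lower, some runs would arise without clustering. How many was not tested, so the count is not read as clustering. The longest, 4 loci, held NDB1 (AT4G28220), EXPB3 (AT4G28250), AT4G28260 and RMA2 (AT4G28270), higher by 0.36 to 0.67 on the log2 scale. EXPB3 was no longer called in 4 of the 9 fits with 1 array left out (adjusted p = 0.0705 without 35S::JAW replicate 1). In 2 runs all loci passed 2-fold: CRK21 and CRK22, which were lower, and AT1G78450 and AT1G78460, which were higher by 1.02 to 1.36. AT1G31680, which has the locus code next to AT1G31690, was missing from the gene table used for the order and so could not form a run.

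Some differences rested on arrays that stood apart, and 10 loci past 2-fold were not called, 3 higher and 7 lower. EARLI1 (AT4G12480), the neighbour of AZI1 and similar to it, had 3.88, 4.83 and 7.97 in 35S::JAW, against 4.08, 4.12 and 4.04 in wild type. The difference of 1.48 ± 0.75 (adjusted p = 0.295) rested mostly on 35S::JAW replicate 3, while replicate 2 was also above wild type and replicate 1 below it. AZI1 was also highest in 35S::JAW replicate 3. bHLH39 (AT3G56980), a factor of the iron deficiency response, had 7.19, 6.10 and 4.66 in 35S::JAW, against 8.29, 8.38 and 7.94 in wild type and 6.89, 4.49 and 7.45 in 35S::GA20OX, with wide spread in both lines (adjusted p = 0.088). AT1G47400 had 8.30, 8.11 and 6.47 in 35S::JAW, against 9.56, 9.13 and 8.79 in wild type and was likewise lowest in 35S::JAW replicate 3. AT2G04050 had 4.01, 4.42 and 4.12 in 35S::JAW, against 4.17, 7.80 and 6.19 in wild type, and UGT74E2 (AT1G05680) had 5.46, 5.13 and 5.15 in 35S::JAW, against 5.35, 8.16 and 7.30 in wild type. In both of these, as in GSTU24, wild type replicate 1 was low and replicate 2 high. Among called loci, the largest SDs over the 35S::JAW arrays were those of AT1G19380 (0.82), AT5G28630 (0.80), PCC1 (0.79), BT5 (0.79) and AZI1 (0.74). AT5G28630 had 7.88, 6.28 and 7.17 in 35S::JAW, against 5.43, 5.51 and 5.40 in wild type, and AT1G19380 had 7.85, 6.50 and 6.37 in 35S::JAW, against 5.64, 6.03 and 5.61 in wild type, with 35S::JAW replicate 1 highest in both, as in BT5. AT1G19380 was no longer called in 6 of the 9 fits with 1 array left out (adjusted p = 0.145 without wild type replicate 3). The 4 called loci whose arrays overlapped were WRKY70, AT1G69210 with -0.43 ± 0.11, FMO GS-OX1 (AT1G65860) with -0.43 ± 0.12 and AT2G37130 with 0.80 ± 0.21. AT1G69210 was no longer called in 7 of the 9 fits with 1 array left out (adjusted p = 0.157 without wild type replicate 3), FMO GS-OX1 in 7 (adjusted p = 0.173 without wild type replicate 1), and AT2G37130 in 7 (adjusted p = 0.149 without wild type replicate 1).

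**Figure D5:**
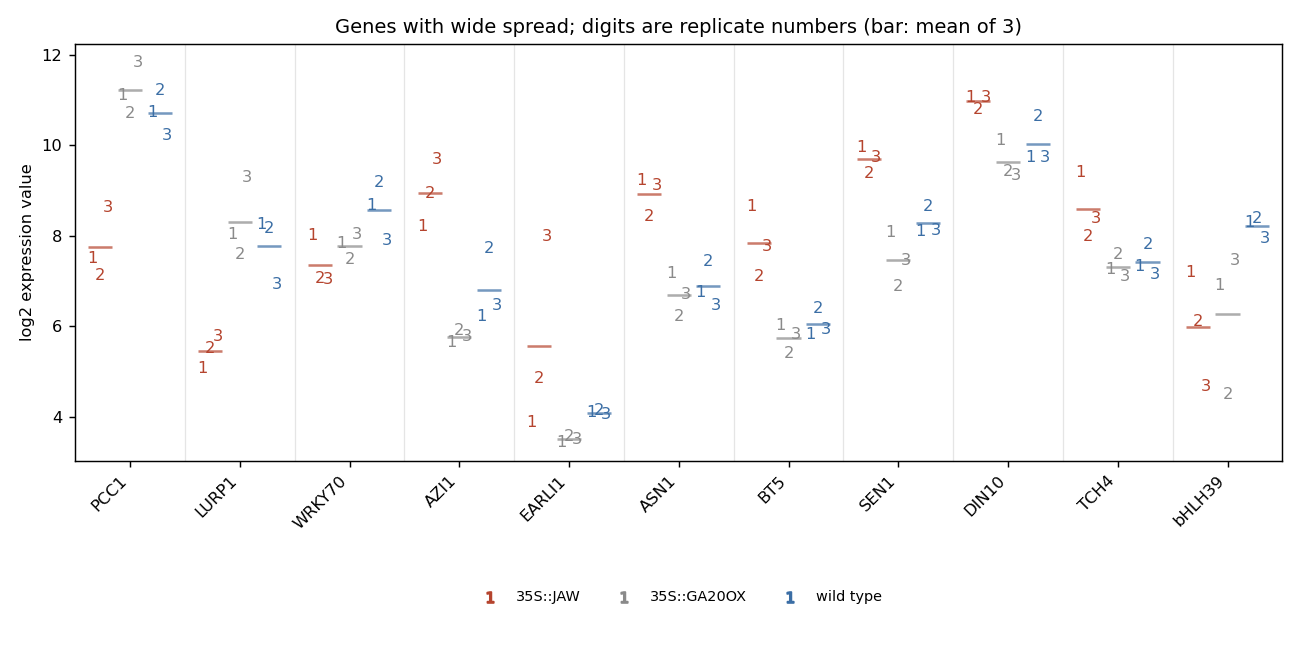
Log2 expression values of 11 genes with wide spread, with each array drawn as its replicate number, 35S::JAW, 35S::GA20OX and wild type from left to right within a gene, and a bar at each mean of 3. EARLI1 is far higher on 35S::JAW replicate 3 than on any other array, and wild type replicate 2 is the highest wild-type array for every gene drawn except LURP1.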

How the data were processed

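RNA from 9 samples was hybridised to ATH1 arrays, per the labels' protocols. The deposited log2 expression values were made by the authors using RMA, according to the submitters' processing notes, with 1 row for each of 20777 AGI loci. RMA corrects background, quantile-normalises arrays and summarises probes, which shrinks differences of dim genes and removes any shift common to all of them. Its version, the chip definition and which arrays were normalised jointly are not given in the sources used. Without detection calls and scan dates, background could not be judged and batches could not be tested. All 9 array columns matched a sample by their labels.

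Differences were tested two-sided in R 4.3.3 with limma 3.58.1 (lmFit on all 9 arrays with a mean for each genotype, then eBayes, with 6 residual and 5.04 prior degrees of freedom), with Benjamini-Hochberg adjustment over all loci. Values after ± are standard errors of the log2 difference, 35S::JAW minus wild type, n = 3 arrays each, and their median was 0.0832. No locus was filtered out. On simulated data with 200 changed genes among 20777 loci, this comparison recovered 71% of the genes changed by 0.5 and 95% of those changed by 1 (log2). The simulated noise was normal and independent between loci and arrays, so these shares need not hold for the real arrays.

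Loci were named through RefSeq (TAIR10.1 assembly), which held 20508 of the loci, or from the gene lists. Since the labels name no build, no coordinates are given, and locus order was used only to find neighbours. Gene families (22) were matched by symbol or synonym there, and miss members with other names. The members and the 29 lists were chosen with earlier results of these data known, and 11 of the lists were added after values were seen. Genes were named by rule: all CIN-type TCP genes, the 25 highest and 25 lowest called loci without overlap, the 5 called loci with the largest SD in 35S::JAW, up to 4 called members per list (2 where none was called; all called members of added lists), up to 3 per family, transcription factors past 2-fold and 2 loci on each side of the threshold. Other members of these lists, the SAUR neighbours, loci with overlap and the largest uncalled differences were named after their values were seen. A gene that the rule names is not reported here. Alternatives were cyclic loess, median centring, leaving out the dimmest 40% of loci, a robust prior with an intensity trend, weights for arrays, a block for the replicate number, the 6 arrays alone, an adjusted p of 0.01 and leaving out each array.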

Additional observations from a re-analysis of the deposited data

How the results depend on the processing

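The counts of 902 higher and 827 lower loci lay between 548 and 876 higher and between 526 and 865 lower with 1 array left out. Leaving out wild type replicate 3 gave 548 and 526, leaving out wild type replicate 1 gave 589 and 546, and the cause was not tested. At an adjusted p of at most 0.01 there were 443 higher and 423 lower, a stricter threshold by construction. The 2-fold counts of 67 and 101 lay between 57 and 78 and between 99 and 106 with 1 array left out. Under cyclic loess, median centring, no dimmest 40%, trend with robust prior, array weights and the 6 arrays alone, counts stayed within 1.5 times, between 806 and 1140 higher and 723 and 1071 lower. None of the 180 called loci among the 196 named changed direction in the settings that tested it. Of the 159 that every setting tested, 124 kept their call throughout, and of 21 left out with the dimmest 40%, 12 kept it in the rest. The replicate block gave 941 higher and 870 lower. Deviations of same-numbered 35S::JAW and wild-type arrays correlated at 0.1005, 0.1006 and 0.0285 for replicates 1 to 3, so the arrays share a number and are not treated as pairs. Signal over background could not be judged, so what limits calls among dim loci was not tested.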

Other observations

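Single members of further families were called in 35S::JAW, where 4.34% of all loci were higher and 3.98% lower. Of 41 nitrate and peptide transporters 6 rose and 5 fell (14.6% and 12.2%), of which 5 and 3 held with each array left out, with a median log2 difference of 0.083. NRT1:2 (AT1G69850), a low-affinity nitrate transporter that also carries abscisic acid, had 7.94, 7.75 and 7.89 in 35S::JAW, against 7.13, 7.18 and 7.02 in wild type. PTR1 (AT3G54140), a peptide transporter, had 7.46, 7.55 and 7.59 in 35S::JAW, against 8.30, 8.24 and 8.22 in wild type, and the groups did not overlap in either gene. AT1G52190 rose by 0.72 ± 0.12. Of 24 B-box and CONSTANS-like zinc finger genes 5 rose and 2 fell (20.8% and 8.33%), of which 3 and 1 held. STH (AT2G31380), a B-box protein, had 9.38, 9.15 and 9.21 in 35S::JAW, against 8.68, 8.53 and 8.51 in wild type, and COL9 (AT3G07650), which delays flowering, had 5.48, 5.25 and 5.37 in 35S::JAW, against 5.95, 6.22 and 6.84 in wild type. Of 14 shade and light-signalling genes HAT1 (AT4G17460) and BBX21 (AT1G75540) rose (14.3%), by 0.51 ± 0.12 and 0.38 ± 0.09, and PIF4 and HY5 had -0.10 ± 0.07 and -0.02 ± 0.13 and were not called. HAT1 was no longer called in 3 of the 9 fits with 1 array left out (adjusted p = 0.0847 without wild type replicate 3), and BBX21 in 4 (adjusted p = 0.0874 without wild type replicate 1).

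Of 45 bZIP factors 5 rose and 1 fell (11.1% and 2.22%), and of these calls 0 higher and 1 lower held with each array left out. BZO2H3 (AT5G28770), a factor of energy starvation signalling, had 9.22, 8.68 and 9.05 in 35S::JAW, against 8.26, 8.41 and 8.08 in wild type, and BZIP9 (AT5G24800) rose by 0.47 ± 0.13. BZIP34 (AT2G42380) had 5.51, 5.47 and 5.66 in 35S::JAW, against 6.42, 6.24 and 6.06 in wild type, the called member that fell. BZO2H3 was no longer called in 3 of the 9 fits with 1 array left out (adjusted p = 0.0701 without wild type replicate 3), and BZIP9 in 7 (adjusted p = 0.148 without 35S::JAW replicate 1). Of 59 UDP-glycosyltransferases 6 rose and 6 fell (10.2% each, against 4.34% and 3.98% of all loci), of which 4 and 5 held. Among them were UGT72E1 (AT3G50740), which glucosylates lignin precursors, with 8.56, 8.50 and 8.44 in 35S::JAW, against 7.76, 7.82 and 7.81 in wild type, and UGT76E11 (AT3G46670), with 6.40, 6.22 and 6.38 in 35S::JAW, against 7.46, 7.08 and 7.16 in wild type. Of 30 AP2/ERF factors matched by name 4 rose and 2 fell (13.3% and 6.67%), of which 4 and 1 held, and DREB26 (AT1G21910) had 6.33, 5.71 and 5.92 in 35S::JAW, against 5.19, 5.36 and 4.75 in wild type.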
